A study of Homo sapiens with 12 samples.

Results

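The response of a hepatocellular carcinoma line that is sensitive to the compound DAAD2 was set against the response of a line that is resistant to it, gene by gene. The quantity described is the difference between both responses on the log2 scale, (Hep3B with DAAD2 minus Hep3B with DMSO) minus (SNU449 with DAAD2 minus SNU449 with DMSO), called the interaction below. All 12 of 12 arrays and 54613 of 54675 probe sets entered it, the remaining 62 being control probe sets of the array. The aim of the comparison was to separate genes that moved in opposite directions from genes that moved in 1 line only, and both from genes whose level in 1 line left little room to move.

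DAAD2 is a derivative of dehydroabietylamine, a diterpene amine of pine resin, that carries an N-acetyl cysteine group. Hep3B is a human liver cancer line that still makes plasma proteins, and SNU449 is a poorly differentiated human liver cancer line. The 12 arrays form 4 groups of 3. Hep3B received 2 μM DAAD2, SNU449 received 20 μM DAAD2, and the control of each line received 0.1% DMSO, all for 72 h. The doses were thus not matched, so that a difference between the lines cannot be told apart from a difference between the doses. Each line is a single cancer line with no genetic change described in the labels. Triplicates are stated, but not whether the RNA of a group came from separate experiments, so the p-values reflect variation from array to array, possibly no more than technical. The values are log2 levels from Affymetrix U133 Plus 2.0 arrays, which the authors normalized with RMA (robust multi-array average).

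Cells that divide copy their DNA with a set of genes that the E2F transcription factors switch on together, and cells that stop dividing switch these genes off together. Liver cells make fibrinogen, complement and other acute phase proteins, more of them when interleukin signals reach them. The NRF2 factor raises detoxifying reductases such as the AKR1 family, and the immediate early genes FOS, JUN and EGR1 answer growth and stress signals within minutes. Tubulins form the microtubules of the spindle, and heat shock chaperones refold damaged proteins.

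The lines carried their identities on the arrays. Albumin (ALB) was at a log2 level of 14.50 to 14.56 on the Hep3B control arrays and of 2.98 to 3.30 on those of SNU449. The receptor kinase AXL was at 3.14 to 3.97 in Hep3B and at 10.73 to 11.14 in SNU449. Of the other mesenchymal markers looked at, VIM, SPARC and ZEB1 were also higher in SNU449 controls. By control means CDH2 differed less, at 7.84 in Hep3B and 8.25 in SNU449. FN1 went the other way, at 11.56 in Hep3B and 10.75 in SNU449. Array medians lay between 3.71 and 3.85, and their mean of 3.78 served as the floor, below which a level was taken as too low to show a fall. Of 13 leukocyte markers 7 lay below it in both Hep3B groups and 9 in both SNU449 groups, among them the pan-leukocyte marker PTPRC at 2.88 to 3.28 on all 12 arrays. Those above the floor in Hep3B included the lysozyme gene LYZ at 11.42 to 12.29 and, by control means, CD74 at 6.72, CD14 at 5.37, CD3E at 4.35 and ITGAM at 4.33. In SNU449 controls CD3E stood at 4.95, CD74 at 4.32 and ITGAM at 4.18. By GAPDH, whose 3′ to 5′ ratio is a sign of RNA integrity, 1 array stood apart: on replicate 2 of DAAD2-treated SNU449 the 3′ probes read 1.99 log2 units above the 5′ probes, while the other arrays gave 0.34 to 1.51. By ACTB it did not, with 3.04 against 1.82 to 3.27.

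The interaction was called at an adjusted p under 0.05 (limma with Benjamini-Hochberg adjustment over all probe sets) for 1096 probe sets, which is 2.01% of those tested. It was positive, with the Hep3B response above the SNU449 response, for 661 probe sets (1.21%) and negative for 435 (0.797%). Unadjusted, 4395 positive and 3258 negative probe sets had a p under 0.05. Over 19775 genes, each represented by its brightest probe set, 360 genes were called positive (1.82%) and 288 negative (1.46%). The share of positive calls depended on the scaling of the arrays: it was 60.3% with the values as deposited, 44.6% after another round of quantile normalization (478 positive and 594 negative) and 40.1% after cyclic loess (416 and 622). Without replicate 2 of DAAD2-treated SNU449 the counts were 1602 and 719, and 650 positive and 420 negative probe sets were called in both fits. With each of the other 11 arrays left out in turn they lay between 211 and 686 for positive and 223 and 395 for negative calls.

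For sorting, a line passed the response rule when its own fold exceeded 1.5 with p below 0.05 before adjustment. By this rule 885 probe sets moved in Hep3B (1.62%; 777 higher and 108 lower) and 1811 in SNU449 (3.32%; 1015 higher and 796 lower). At an adjusted p under 0.05, with the spread estimated from all 12 arrays, 154 probe sets changed in Hep3B (0.282%; 123 rose and 31 fell) and 1850 in SNU449 (3.39%; 1163 rose and 687 fell). The verbs rose and fell are kept for these. Of the 1096 probe sets with a called interaction, 54 passed the rule in both lines with opposite signs. A further 117 passed it in Hep3B only and 518 in SNU449 only, with the other line above the floor. For 100 probe sets the line that did not pass lay below the floor in both of its groups. In 307 probe sets neither line passed the rule and the difference was made of 2 smaller responses, of opposite sign in all 307. No probe set with a called interaction passed the rule in both lines with the same sign (0 of 1096). In all, 949 of the 1096 had responses of opposite sign, which follows in part from calling on their difference.

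**Figure D1:**
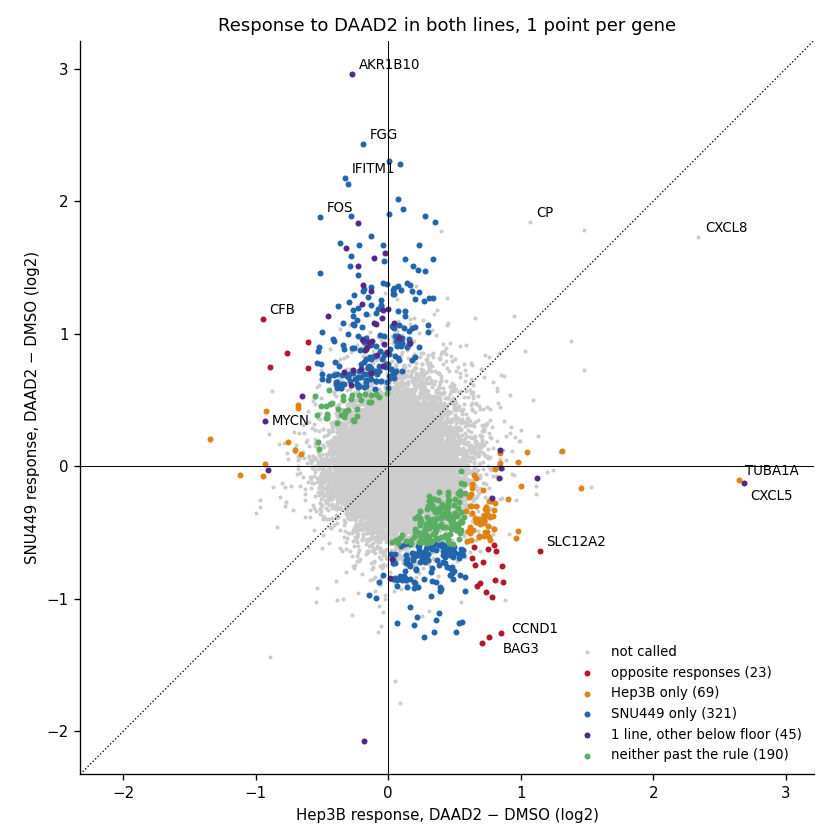
Response to DAAD2 in Hep3B (x axis) against the response in SNU449 (y axis), both as log2 differences between the mean of 3 DAAD2 arrays and 3 DMSO arrays, for 19775 genes at 1 point each. Coloured points are the 648 genes with a called interaction, by class, and the dotted line marks equal responses; CFB sits in the upper left, CCND1 and BAG3 in the lower right, and TUBA1A and CXCL5 far to the right at a SNU449 response near 0.

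Genes that moved in opposite directions were led by the cell cycle gene CCND1 and the chaperone partner BAG3 on one side and by the complement gene CFB on the other. In 48 of the 54 probe sets the level was higher in Hep3B and lower in SNU449 with DAAD2, and in 6 it was the reverse. They represent 23 genes. By an adjusted p in both lines, 5 of them changed in both: BAG3, PHLDA2, CFB, ANG and FXYD2.

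CCND1 encodes cyclin D1, which drives cells out of G1. Its log2 levels in Hep3B were 5.27, 5.56 and 5.80 with DMSO and 6.65, 6.62 and 5.92 with DAAD2. In SNU449 they were 8.38, 8.97 and 9.05 with DMSO and 7.66, 7.24 and 7.72 with DAAD2. The DAAD2 arrays lay above all control arrays in Hep3B and below all control arrays in SNU449. The response was 0.85 on the log2 scale in Hep3B (1.80-fold, adjusted p = 0.127) and −1.26 in SNU449 (adjusted p = 0.00782), and the interaction 2.11 ± 0.32 (standard error, adjusted p = 0.0068). The difference between the lines in CCND1 level thus narrowed with DAAD2, from control means of 5.54 and 8.80 to 6.39 and 7.54.

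BAG3 encodes a co-chaperone of HSP70 that takes part in the clearance of misfolded proteins. Hep3B levels of BAG3 were 6.57, 6.56 and 6.50 with DMSO and 7.40, 7.33 and 7.19 with DAAD2, and SNU449 levels were 10.31, 10.39 and 10.36 with DMSO and 8.96, 9.08 and 9.16 with DAAD2. No arrays overlapped between the groups of a line. BAG3 rose in Hep3B by 0.76 log2 units (adjusted p = 0.00874) and fell by 1.28 in SNU449 (adjusted p = 1.42e-05), an interaction of 2.05 ± 0.13 (adjusted p = 1.52e-05) that was called under each alternative tried.

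GDAP1, a mitochondrial outer membrane protein, followed BAG3 by size among the positive interactions with opposite responses, at 2.04 ± 0.42. Its call was lost without any 1 of 6 arrays, with an adjusted p of 0.0785 without replicate 2 of DAAD2-treated Hep3B. SLC12A2, the sodium-potassium-chloride cotransporter of the plasma membrane, stood at 6.92, 6.76 and 7.05 in Hep3B controls and at 8.20, 8.46 and 7.51 with DAAD2. In SNU449 the SLC12A2 levels were 7.37, 7.33 and 7.20 in controls and 6.28, 6.83 and 6.87 with DAAD2. It rose in Hep3B (1.14, adjusted p = 0.0444), while its SNU449 response of −0.64 had an adjusted p of 0.142. SHCBP1, a protein of dividing cells, had an interaction of 1.77 ± 0.28 and fell in SNU449 (−0.98, adjusted p = 0.0136) against 0.78 in Hep3B (adjusted p = 0.105). For CHML, a Rab escort protein, the responses of 0.87 and −0.88 were of nearly the same size, and neither passed the adjusted test in its own line. CHML lost its call without replicate 1 of DAAD2-treated SNU449 and without replicate 3 of DMSO-treated SNU449 (adjusted p = 0.0593).

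In the other direction, CFB encodes complement factor B, the protease of the alternative complement pathway. Hep3B levels of CFB were 7.58, 7.75 and 7.39 with DMSO and 6.54, 6.41 and 6.94 with DAAD2. In SNU449 they were 3.98, 4.15 and 3.87 with DMSO and 5.26, 5.02 and 5.05 with DAAD2. The groups of each line did not overlap. CFB fell in Hep3B (−0.94, adjusted p = 0.0259) and rose in SNU449 (1.11, adjusted p = 0.00113), with an interaction of −2.05 ± 0.21 (adjusted p = 0.000488). The SNU449 controls lay just over the floor of 3.78, so that a fall could hardly have been seen in SNU449, whereas the rise could.

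ANG, the secreted ribonuclease angiogenin, fell from 9.12, 9.38 and 8.79 to 8.30, 8.01 and 8.32 in Hep3B, and rose from 6.94, 6.89 and 6.79 to 7.72, 7.34 and 7.80 in SNU449. The responses of ANG were −0.89 (adjusted p = 0.0421) and 0.75 (adjusted p = 0.0198). FXYD2, the gamma subunit of the sodium pump, fell by 0.60 in Hep3B (adjusted p = 0.0449) and rose by 0.74 in SNU449 (adjusted p = 0.00238). TNFSF10, the death ligand TRAIL, was at 7.56, 7.55 and 7.26 in Hep3B controls and 6.79, 6.66 and 6.64 with DAAD2, against 4.45, 4.10 and 3.57 in SNU449 controls and 5.27, 4.77 and 4.65 with DAAD2. Its rise of 0.85 in SNU449 passed (adjusted p = 0.0352) and its Hep3B response of −0.76 did not (adjusted p = 0.125). ST6GALNAC2, a sialyltransferase, had responses of −0.60 and 0.94 and an interaction of −1.54 ± 0.19. In all 5 genes of this pattern the groups of each line did not overlap. Their selection by the rule in both lines favours this, and the share over all probe sets was not counted.

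**Figure D2:**
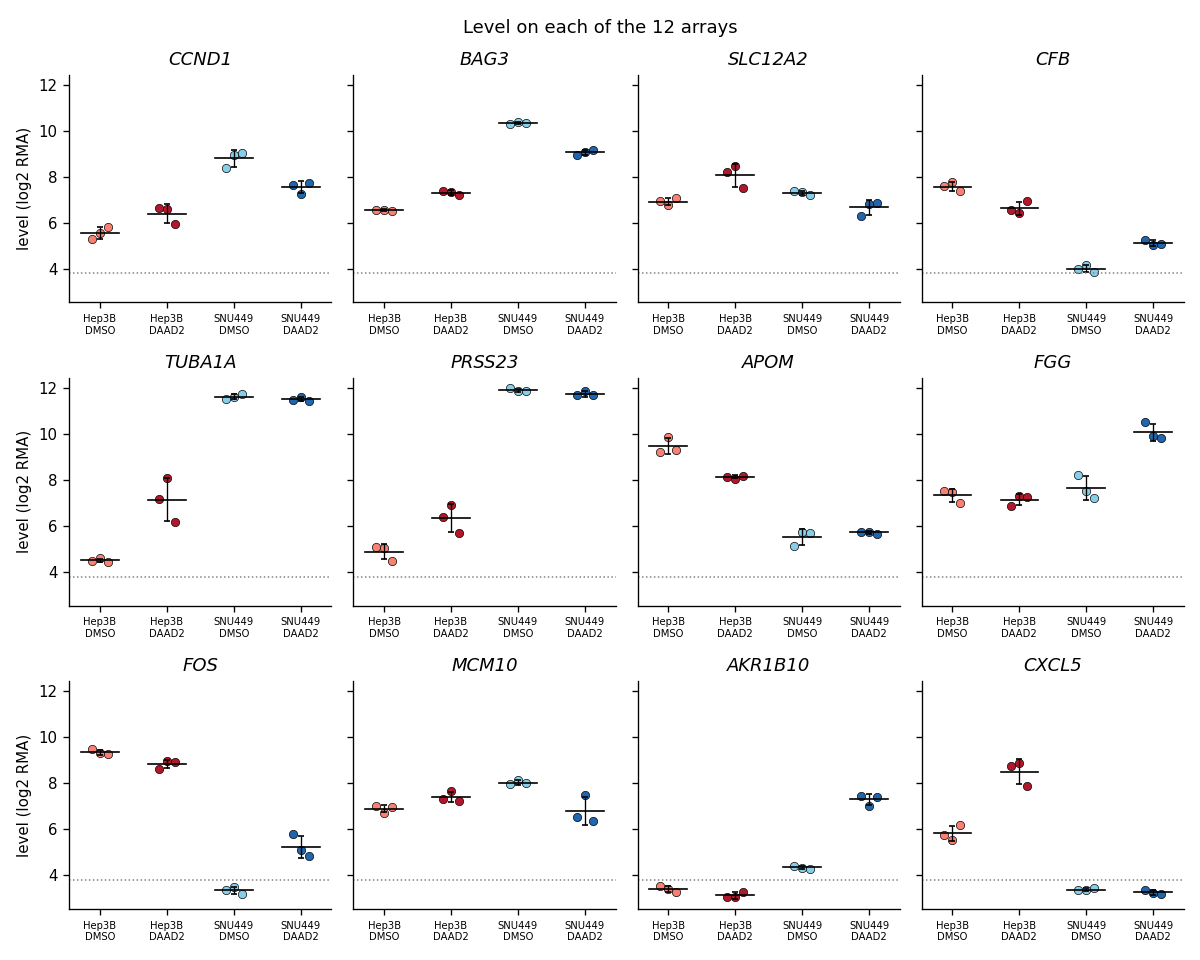
Log2 level (y axis, RMA) on each of the 12 arrays for 12 genes, by group (x axis), with the group mean as a line, the SD over 3 arrays as an error bar and the floor of 3.78 as a dotted line. CCND1, BAG3, SLC12A2 and CFB move in opposite directions, TUBA1A, PRSS23 and APOM in Hep3B only, FGG, FOS and MCM10 past the rule in SNU449 only, and AKR1B10 and CXCL5 in 1 line while the other lies below the floor.

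Responses in Hep3B only, with SNU449 above the floor, were led by the alpha tubulin TUBA1A. Of the 117 probe sets, 103 were higher and 14 lower with DAAD2 in Hep3B. In 47 of the 117 the 95% confidence interval of the SNU449 response lay within 1.5-fold either way, so that a response of the size of the rule is outside that interval. In 61 of the 117 the SNU449 response had itself an unadjusted p under 0.05. The sign of the SNU449 response was opposite to that of Hep3B in 107 of the 117.

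TUBA1A, an alpha tubulin of spindle and cytoskeleton, stood at 4.46, 4.59 and 4.43 in Hep3B controls and at 7.15, 8.07 and 6.19 with DAAD2. In SNU449 its levels were 11.53, 11.60 and 11.75 with DMSO and 11.49, 11.62 and 11.45 with DAAD2. TUBA1A rose 6.25-fold in Hep3B (2.64 log2 units, adjusted p = 0.00744), whereas the SNU449 response was −0.10 with a 95% confidence interval of −0.78 to 0.58. The treated Hep3B arrays spread widely, and all of them stayed more than 3 log2 units below each SNU449 array. The interaction of 2.75 ± 0.45 (adjusted p = 0.0093) thus set a rise from a low level against a level that was already high.

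PRSS23, a secreted serine protease, showed the same arrangement of levels. It rose in Hep3B from 5.07, 5.04 and 4.49 to 6.37, 6.91 and 5.69 (adjusted p = 0.0339) and lay between 11.68 and 11.99 on all SNU449 arrays. The PRSS23 call was lost without any 1 of 8 arrays (adjusted p = 0.0767 without replicate 1 of DAAD2-treated Hep3B), while that of TUBA1A held without each array. Other PRSS23 probe sets had interactions of 0.67, −0.62 and −0.08, none of them called. IPO4, an importin that carries histones into the nucleus, rose in Hep3B by 0.77 (adjusted p = 0.0276) and fell in SNU449 by 0.55 (adjusted p = 0.022), below the fold of the rule, so it too moved in both lines. The non-coding RNA PRR34-AS1 rose in Hep3B by 0.98 (adjusted p = 0.0109), against −0.49 in SNU449. WDR4, a partner of a tRNA methyltransferase, differed by 1.499 ± 0.296, a call lost without any 1 of 4 arrays (adjusted p = 0.0684 without replicate 3 of DMSO-treated SNU449).

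Lower in Hep3B only was APOM, the apolipoprotein that carries sphingosine-1-phosphate in plasma. APOM fell from 9.23, 9.88 and 9.30 to 8.15, 8.06 and 8.19 in Hep3B (0.395-fold, adjusted p = 0.01). SNU449 levels of APOM were 5.12, 5.74 and 5.67 with DMSO and 5.73, 5.75 and 5.65 with DAAD2, a response of 0.20 with an interval of −0.18 to 0.58, which just fits within 1.5-fold. MEP1A, the brush border protease meprin A, fell by 1.12 in Hep3B (adjusted p = 0.0231) at SNU449 levels of 3.70 to 4.41 that lay at the floor, and its interaction of −1.05 ± 0.24 was not called when arrays were centred on their medians, nor without any 1 of 7 arrays (adjusted p = 0.105 without replicate 1 of DAAD2-treated Hep3B). MMP11, a matrix metalloproteinase, had responses of −0.92 in Hep3B and 0.42 in SNU449. The antisense RNA ICA1-AS1 had an interaction of −1.11 ± 0.19. The placental glycoprotein gene PSG7 had responses of −0.68 and 0.46, measured by a probe set that near-identical PSG genes may share.

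Responses in SNU449 only were the largest class, with 518 probe sets for 321 genes. DAAD2 arrays were higher in 288 of them (200 genes) and lower in 230 (121 genes). In 326 of the 518 the 95% interval of the Hep3B response lay within 1.5-fold, and in 155 the Hep3B response had an unadjusted p under 0.05. By direction, the interval lay within 1.5-fold in 217 of 288 probe sets that were higher in SNU449, but in 109 of 230 that were lower, where the median Hep3B response was 0.28 rather than near 0.

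Vehicle levels separated these directions as well. Among the 288 probe sets higher with DAAD2 in SNU449, 203 (70.5%) had a higher level in Hep3B controls than in SNU449 controls, against 26446 of 54613 (48.4%) over all probe sets tested. In 148 of the 288 the treated SNU449 level still lay below the Hep3B control level. Among the 230 probe sets lower with DAAD2, 47 (20.4%) had the higher level in Hep3B controls. These shares describe the lists, since a low SNU449 control mean both raises the SNU449 response and lowers the control level that it is compared with.

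**Figure D3:**
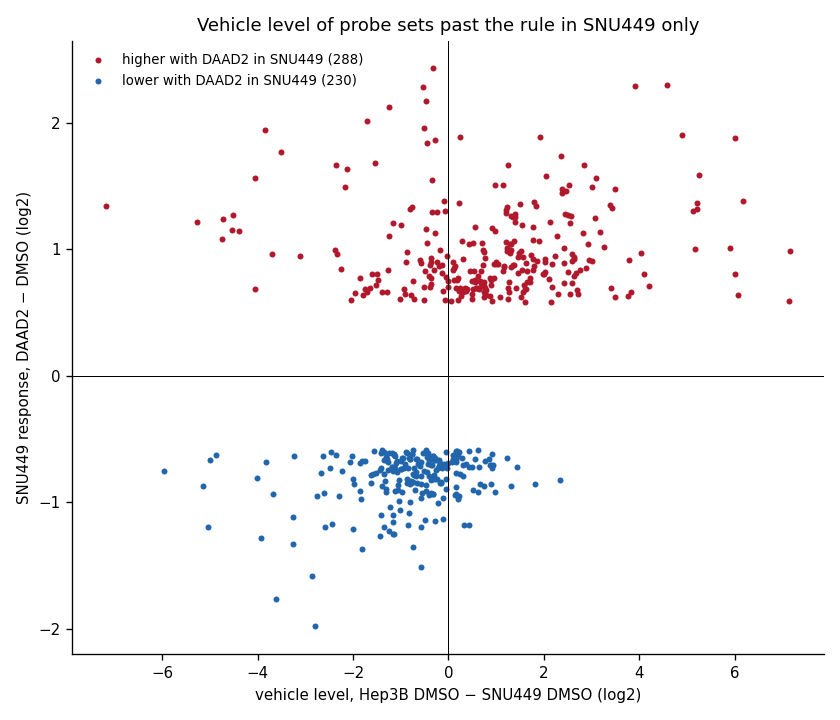
Difference in control level, Hep3B DMSO minus SNU449 DMSO (x axis, log2), against the SNU449 response to DAAD2 (y axis, log2) for the 518 probe sets past the rule in SNU449 only. Of the 288 points above 0, 203 lie on the right, where Hep3B controls were higher, and of the 230 points below 0, 47 do.

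FGG, the gamma chain of fibrinogen, had the largest interaction of this class. Its SNU449 levels were 8.22, 7.51 and 7.21 with DMSO and 10.51, 9.91 and 9.81 with DAAD2, and its Hep3B levels 7.50, 7.49 and 7.01 with DMSO and 6.87, 7.30 and 7.27 with DAAD2. FGG rose 5.39-fold in SNU449 (adjusted p = 0.000172) from a control level close to that of Hep3B, whose response was −0.19 (interval −0.72 to 0.35). The interaction was −2.62 ± 0.35 (adjusted p = 0.00356).

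FOS, a subunit of the AP-1 factor, was a case of a gap that narrowed. In SNU449 it rose from 3.35, 3.48 and 3.19, below the floor, to 5.77, 5.07 and 4.84. Hep3B levels of FOS were 9.48, 9.29 and 9.28 with DMSO and 8.62, 8.96 and 8.94 with DAAD2. Even after a rise of 1.88 (adjusted p = 0.000181) the treated SNU449 arrays stayed below all Hep3B arrays. The Hep3B response of −0.51 did not pass the rule, and the interaction was −2.40 ± 0.27 (adjusted p = 0.00136). The phospholipase PLA1A had the same form, with 3.73, 3.81 and 3.47 in SNU449 controls, 6.17, 5.91 and 5.86 with DAAD2, and 7.96 to 8.47 on the Hep3B arrays. So did C3, the central complement component, which rose by 1.91 in SNU449 (adjusted p = 1.65e-06) and lay between 11.72 and 11.86 on all Hep3B arrays.

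IFITM1, an interferon-induced membrane protein that hinders virus entry, rose in SNU449 from 4.52, 4.49 and 4.32 to 7.22, 6.03 and 6.61, with Hep3B levels of 3.34 to 4.04 around the floor. Its interaction was −2.50 ± 0.32 (adjusted p = 0.00285). PSG3, a pregnancy-specific glycoprotein, rose in SNU449 from 5.89, 6.11 and 6.41 to 8.42, 8.07 and 8.30 (adjusted p = 1.47e-05), against a Hep3B response of −0.31. The PSG3 probe set may pick up other PSG genes, and the IFITM1 probe set other IFITM genes. ALDH1L1, a folate enzyme, rose by 1.69 in SNU449 (adjusted p = 0.00024).

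SLC7A5, a large amino acid transporter, led the lower side together with replication genes. It fell in SNU449 from 9.29, 9.27 and 9.52 to 8.02, 8.34 and 8.19 (adjusted p = 0.00158) and was at 7.18, 6.87 and 6.71 in Hep3B controls and 7.41, 7.82 and 7.20 with DAAD2, an interaction of 1.73 ± 0.23. NEXN and MYL9, proteins of the contractile cytoskeleton, fell in SNU449 by 1.29 and 1.19 (adjusted p = 0.00231 and 0.0022). NEXN levels in Hep3B lay between 3.47 and 4.16, at the floor, where a fall could hardly have been seen.

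For 100 probe sets (45 genes) the line without a response was below the floor. In 19 of these Hep3B passed the rule (14 higher and 5 lower) and in 81 SNU449 did (64 higher and 17 lower). The interaction of such a gene describes a change in 1 line, and cannot tell a gene that does not respond in the other line from one that is not measured there.

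The largest interaction on the arrays was of this kind. AKR1B10, an aldo-keto reductase that detoxifies reactive aldehydes, rose in SNU449 from 4.40, 4.32 and 4.28 to 7.46, 7.01 and 7.41 (7.79-fold, adjusted p = 1.1e-07). Hep3B levels of AKR1B10 were 3.50, 3.37 and 3.27 with DMSO and 3.03, 3.03 and 3.26 with DAAD2, all below the floor. The interaction was −3.23 ± 0.18 (adjusted p = 5.33e-06). CXCL5, a chemokine that attracts neutrophils, was the counterpart in Hep3B. It rose there from 5.74, 5.53 and 6.17 to 8.74, 8.88 and 7.86 (6.41-fold, adjusted p = 0.000972) and lay between 3.18 and 3.44 on all SNU449 arrays. Its interaction was 2.81 ± 0.31 (adjusted p = 0.00124).

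MYCN, a MYC family factor, fell in Hep3B from 6.57, 6.49 and 7.14 to 5.71, 6.01 and 5.71 (adjusted p = 0.0351) and lay between 2.88 and 3.37 in SNU449. Other MYCN probe sets had interactions of −0.31 to 0.52, none called, at Hep3B control means of 2.83 to 4.08. CLRN3, a membrane protein, fell in Hep3B by 0.91 (adjusted p = 0.01), and FMO5, a flavin monooxygenase, was lower there by 0.65 (adjusted p = 0.0895). CEP15, a centrosomal protein, and RFX6, a transcription factor, rose in Hep3B by 1.12 and 0.79 (adjusted p = 0.00904 and 0.0424). In SNU449, the secreted phosphoprotein SPP1 rose by 1.83 (adjusted p = 0.00229), the chondroitin sulphate enzyme CSGALNACT1 by 1.65 (adjusted p = 0.00415) and the guanylate-binding protein GBP3 by 1.61 (adjusted p = 7.58e-05). ZBED2, a transcription factor, fell in SNU449 from 8.41, 9.08 and 9.13 to 6.48, 7.12 and 6.81 (adjusted p = 0.0001), with Hep3B levels of 3.13 to 3.65. LINC01279 fell there by 0.85 and NXPH2, a neurexophilin, by 0.70 (adjusted p = 0.00266 and 0.00341). Single arrays decided several of these calls. RFX6 and SPP1 each lost theirs without any 1 of 4 arrays (adjusted p = 0.0604 and 0.0545 without replicate 1 of DAAD2-treated Hep3B) and CSGALNACT1 without any 1 of 6 (adjusted p = 0.062 without replicate 2 of that group). FMO5 lost its call without replicate 3 of DMSO-treated SNU449 (adjusted p = 0.0504). CLRN3 lost its call without any 1 of 3 arrays and LINC01279 without any 1 of 8, with adjusted p = 0.0598 and 0.0902 without that same array. NXPH2 lost its call without any 1 of 9 (adjusted p = 0.0898 without replicate 2 of DMSO-treated SNU449).

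Some genes moved the same way in both lines. By the response rule 45 probe sets did (42 higher and 3 lower in both), against 63 with opposite signs, and none of the 45 had a called interaction. A missed call does not make the responses equal, so the intervals are given. CXCL8, the chemokine interleukin-8, was higher by 2.34 in Hep3B and 1.73 in SNU449 (adjusted p = 0.0614 and 0.0705), and the difference of 0.61 had a 95% interval of −0.84 to 2.06. Its relative CXCL6 had responses of 1.48 and 1.78, with an interval of −1.31 to 0.71 for the difference. Ceruloplasmin (CP), the copper oxidase of plasma, rose by 1.07 in Hep3B (adjusted p = 0.0394) and by 1.85 in SNU449 (adjusted p = 0.000155), with an interval of −1.35 to −0.21 and an adjusted p of 0.178 for the difference. IL32, a cytokine, rose by 1.38 and 0.95 (interval −0.30 to 1.16), and RELN, an extracellular glycoprotein, by 0.95 and 1.13 (interval −0.64 to 0.28). DLK1, a Notch ligand relative of fetal liver, fell by 0.89 and 1.44 (interval 0.16 to 0.95, adjusted p = 0.169). The chaperone HSPA4L had responses of 1.48 and 0.72, with an interval of 0.02 to 1.49.

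Among gene lists, DNA replication differed most between the lines. Of 45 measured genes 26 had a called interaction, all 26 positive, beside 1.82% positive calls over all genes. The interaction was above 0 in 45 of 45 genes, beside 9242 of 19775 over all genes. Its median was 0.91 against −0.02 over all genes. The median response was −0.66 in SNU449 and 0.19 in Hep3B. In SNU449 29 of the 45 genes fell at an adjusted p under 0.05, where 1.76% of all genes did. In Hep3B none rose or fell (0 of 45), but only 0.46% of all genes changed there, so the 0 is no result about the list. By the brightest probe set of each, 21 of the 26 called genes passed the rule in SNU449 only and 4 in neither line. The remaining 1, CDC6, passed it in both with opposite signs. With 1 array left out in turn, 18 to 28 of the 45 genes were called, while over all genes positive calls ranged from 120 to 827 and negative calls from 156 to 424. In bulk RNA, fewer cells in S phase and less RNA per cell cannot be told apart.

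Among the members, MCM10, a factor that starts replication forks, was at 7.96, 8.13 and 7.99 in SNU449 controls and at 6.51, 7.48 and 6.34 with DAAD2. Hep3B levels of MCM10 were 6.99, 6.70 and 6.97 with DMSO and 7.29, 7.67 and 7.24 with DAAD2. The groups did not overlap in either line, and the treated SNU449 array with the high GAPDH ratio was the one nearest to its controls. On this brightest probe set the call of the MCM10 interaction, 1.76 ± 0.33, was lost without any 1 of 3 arrays (adjusted p = 0.0536 without replicate 2 of DAAD2-treated Hep3B). Other MCM10 probe sets had called interactions of 1.84 ± 0.27 and 1.03 ± 0.22 (adjusted p = 0.00586 and 0.0322). RRM2, the small subunit of ribonucleotide reductase, fell in SNU449 from 10.24, 10.68 and 10.91 to 9.28, 9.71 and 9.28 (adjusted p = 0.00144), with 9.76, 9.65 and 9.86 in Hep3B controls and 10.35, 10.35 and 10.19 with DAAD2. TCF19, a factor of the G1 to S transition, had the smallest error, with an interaction of 1.59 ± 0.16 (adjusted p = 0.000427).

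Of the 6 subunits of the replicative helicase, 5 had a called interaction. MCM2 had responses of 0.07 in Hep3B and −1.18 in SNU449, MCM4 of 0.39 and −0.94, MCM5 of 0.20 and −0.92, MCM7 of 0.10 and −0.86 and MCM3 of 0.28 and −0.65. The remaining subunit, MCM6, had responses of 0.10 and −0.43 and was not called (adjusted p = 0.0821). CDC6, which loads the helicase onto DNA, had responses of 0.71 and −0.72 and an interaction of 1.43 ± 0.22. UHRF1, a reader of replicated methylated DNA, had responses of 0.22 and −1.14, and the cyclin CCNE2 of 0.36 and −1.16. The smallest differences of the list belonged to RPA3, a subunit of the single-strand binding protein, and POLD3, a polymerase delta subunit, neither called.

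**Figure D4:**
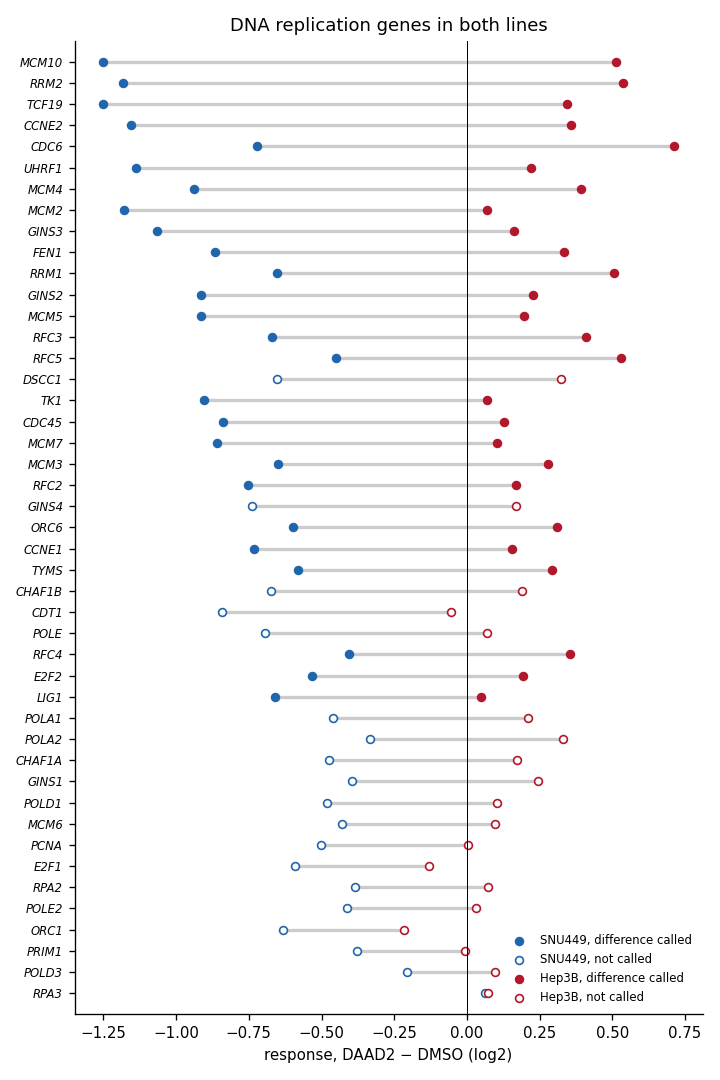
Response to DAAD2 (x axis, log2 difference of group means, 3 arrays each) of 45 DNA replication genes in SNU449 (blue) and Hep3B (red), ordered by the interaction from largest at the top. Filled points mark the 26 genes with a called interaction; the red point lies to the right of the blue point in each of the 45 genes.

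Since these genes moved together, their promoters were searched for the letters of E2F sites, as the forms TTTCCCGC, TTTGGCGC, TTTCGCGC and TTTGCCGC on both strands. A promoter here is the stretch from 250 bases before to 50 bases after the RefSeq start (GRCh38.p14), and 529 of the 648 called genes had one. The promoters of 4 helicase and loading genes with such letters are shown, 5′ to 3′ on the strand of the gene, with the matched letters in capitals.
MCM2, chr3:127598161-127598460, plus strand: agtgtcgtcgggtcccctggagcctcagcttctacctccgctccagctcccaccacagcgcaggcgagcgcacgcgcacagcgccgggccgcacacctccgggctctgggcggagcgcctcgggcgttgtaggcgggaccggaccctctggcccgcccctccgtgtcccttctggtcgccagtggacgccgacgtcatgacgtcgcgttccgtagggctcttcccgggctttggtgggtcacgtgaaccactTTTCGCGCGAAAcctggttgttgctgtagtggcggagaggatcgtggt
MCM3, chr6:52284693-52284992, minus strand: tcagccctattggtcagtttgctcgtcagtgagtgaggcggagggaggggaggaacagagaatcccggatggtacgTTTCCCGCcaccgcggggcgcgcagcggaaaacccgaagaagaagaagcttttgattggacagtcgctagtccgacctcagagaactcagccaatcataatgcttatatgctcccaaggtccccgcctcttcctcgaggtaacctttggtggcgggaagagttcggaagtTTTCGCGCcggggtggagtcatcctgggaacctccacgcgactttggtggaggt
MCM7, chr7:100101348-100101647, minus strand: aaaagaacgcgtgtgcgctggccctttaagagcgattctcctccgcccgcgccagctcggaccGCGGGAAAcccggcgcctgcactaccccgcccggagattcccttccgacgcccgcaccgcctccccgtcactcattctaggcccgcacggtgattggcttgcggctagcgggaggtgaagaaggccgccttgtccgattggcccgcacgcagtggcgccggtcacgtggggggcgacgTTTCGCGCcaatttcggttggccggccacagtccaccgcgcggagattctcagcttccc
CDC6, chr17:40287629-40287928, plus strand: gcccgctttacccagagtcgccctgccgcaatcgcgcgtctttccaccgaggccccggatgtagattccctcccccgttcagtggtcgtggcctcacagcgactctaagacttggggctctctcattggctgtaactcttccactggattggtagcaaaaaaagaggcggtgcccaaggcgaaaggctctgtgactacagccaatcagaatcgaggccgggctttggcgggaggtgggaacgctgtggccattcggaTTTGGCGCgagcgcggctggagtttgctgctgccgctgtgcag
In MCM2 the capitals hold 2 overlapping matches, 1 on each strand. E2F letters were found in 11 of 23 called replication genes with a promoter (47.8%), in 32 of 302 genes with a positive interaction (10.6%), in 4 of 227 with a negative one (1.76%) and in 671 of 15384 genes tested (4.36%). Outside the replication and mitosis lists the share was 20 of 266 genes with a positive interaction (7.52%). Replication genes are known as E2F genes, and uncalled members of the list were not counted. The 47.8% therefore describes the list and not the difference between the lines.

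Some other letters also differed between the directions, and others were nearly even. The CCAAT box was held by 45.7% of promoters of genes with a positive interaction, 31.7% with a negative one and 36.1% of all. For the TATA box, searched as TATAAA, the shares were 3.31%, 12.8% and 8.76% in the same order. The AP-1 site TGACTCA was held by 1.99%, 2.64% and 3.74%, and the antioxidant response element TGACNNNGC by 14.6%, 14.1% and 14.8%. The interferon-stimulated response element was held by 1.32%, 4.41% and 2.94%, the cyclic AMP response element TGACGTCA by 3.31%, 3.08% and 2.67%, and the heat shock element by 0%, 0% and 0.429%. A match of letters is a description and shows no binding.

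Mitosis genes went with the replication genes at a smaller size. Of 40 measured genes 16 were called, all 16 positive (40.0%, beside 1.82% of all genes). The interaction was above 0 in 40 of 40, beside 9242 of 19775 over all genes, with a list median of 0.72. The median response was −0.38 in SNU449 and 0.29 in Hep3B. In SNU449 10 of the 40 genes fell at an adjusted p under 0.05, where 1.76% of all genes did. No mitosis gene (0 of 40) changed in Hep3B, but only 0.46% of all genes did, so the 0 is no result about the list. KIF23, a kinesin of the dividing cell's midbody, had responses of 0.76 and −0.53 and an interaction of 1.29 ± 0.23. The spindle checkpoint kinase BUB1B fell in SNU449 (−0.63, adjusted p = 0.0408) beside 0.56 in Hep3B (adjusted p = 0.133), and its interaction was not called without replicate 3 of DMSO-treated SNU449 (adjusted p = 0.051). MKI67, the proliferation marker Ki-67, fell by 0.85 (adjusted p = 0.0028) beside 0.27. Other MKI67 probe sets had responses in Hep3B and SNU449 of 0.70 and −0.91 (interaction adjusted p = 0.0144), 0.27 and −0.78 (0.046) and 0.33 and −0.38 (0.132). The count ranged from 4 without replicate 3 of DMSO-treated SNU449 to 24 without replicate 2 of DAAD2-treated SNU449. Any 1 of 10 arrays, all but the latter and replicate 1 of DMSO-treated SNU449, lowered it by over 1.5 times, and after cyclic loess it was 8.

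Of 18 tubulin genes 6 had a called interaction, all positive (33.3%, beside 1.82% of all genes), with a list median of 0.26. Besides TUBA1A these were TUBB6, TUBA1C, TUBA1B, TUBB and TUBG1. TUBB6, a broadly made beta tubulin, rose in Hep3B from 7.59, 7.68 and 7.77 to 8.41, 8.65 and 8.16 (adjusted p = 0.0351), and was at 10.47, 10.60 and 10.57 in SNU449 controls and 10.06, 10.22 and 10.15 with DAAD2. TUBA1C had responses of 0.39 and −0.34, and its call was lost without any 1 of 9 arrays (adjusted p = 0.109 without replicate 2 of DAAD2-treated Hep3B). Alpha tubulin probe sets can share targets among near-identical genes. The tubulin count was 2 without replicate 2 or 3 of DMSO-treated SNU449, replicate 1 of DAAD2-treated SNU449 or replicate 2 of DAAD2-treated Hep3B, and 3 without replicate 1 or 2 of DMSO-treated Hep3B or after cyclic loess.

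Heat shock chaperones had 3 called genes of 26, all positive (11.5%, beside the same 1.82%), and a median interaction of 0.42. The count was 5 without replicate 2 of DAAD2-treated SNU449 or replicate 3 of DAAD2-treated Hep3B. HSPH1, an HSP110 family chaperone, rose in Hep3B from 7.39, 7.50 and 7.83 to 8.93, 9.13 and 8.59 (2.48-fold, adjusted p = 0.00596) and had a SNU449 response of 0.12 (interval −0.20 to 0.44). HSPA9, the mitochondrial HSP70, had responses of 0.54 and −0.27, and BAG3 was the third. The HSPA9 call was lost without any 1 of 5 arrays (adjusted p = 0.0606 without replicate 3 of DMSO-treated SNU449). The list median was 0.35 in Hep3B and 0.02 in SNU449. Endoplasmic reticulum stress genes had 7 called of 40, all positive (17.5%), and a median of 0.33. HSPA5, the chaperone BiP, rose in Hep3B by 0.63 (adjusted p = 0.0259) beside −0.30 in SNU449, an interaction of 0.93 ± 0.14, and WARS1, a tRNA synthetase, fell in SNU449 by 0.44 (adjusted p = 0.0445) beside 0.35. WARS1 lost its call without any 1 of 6 arrays (adjusted p = 0.0677 without replicate 2 of DAAD2-treated Hep3B). The count of endoplasmic reticulum stress genes was 2 to 4 without any 1 of 7 arrays (replicates 2 and 3 of each DMSO group, replicate 1 of DAAD2-treated SNU449 and replicates 1 and 2 of DAAD2-treated Hep3B) and 3 after cyclic loess.

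**Figure D5:**
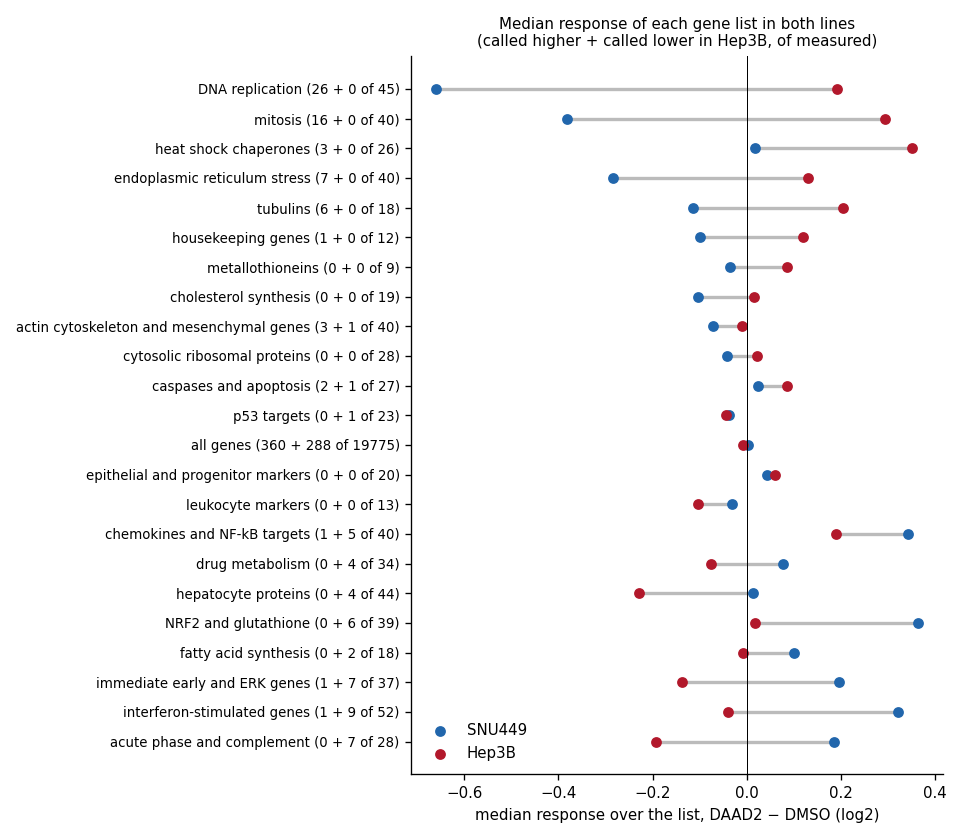
Median response to DAAD2 over each of 22 gene lists and over all genes in SNU449 (blue) and Hep3B (red), on the log2 scale (x axis), ordered by the median interaction. The numbers beside each list are genes called positive plus genes called negative, of those measured; DNA replication is widest at 26 of 45 and acute phase lies lowest with 7 of 28 called negative.

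Acute phase and complement genes differed in the other direction. Of 28 measured genes 7 were called, all negative, beside 1.46% negative calls over all genes, and the median interaction was −0.50. The count was 4 without any 1 of 6 arrays (replicates 2 and 3 of DMSO-treated SNU449, replicates 1 and 2 of DMSO-treated Hep3B and replicate 1 of each DAAD2 group). In SNU449 10 genes rose, where 3.73% of all genes did. None (0 of 28) fell there, but only 1.76% of all genes did, so the 0 is no result about the list. In Hep3B 1 rose and 1 fell, where 0.46% of all genes changed in either direction. The 3 fibrinogen chains were all called. FGA had responses of −0.13 in Hep3B and 1.35 in SNU449, FGB of 0.12 and 1.56, and FGG of −0.19 and 2.43. The complement genes C3, CFB and CFI were called as well, CFI, the protease complement factor I, with responses of 0.04 and 1.30. The protease inhibitor SERPINA3 was the seventh, with −0.54 and 0.39.

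Hepatocyte proteins had 4 negative calls of 44 (9.09%, beside 1.46% of all genes). The count was 2 without replicate 2 of DMSO-treated Hep3B or replicate 1 of DAAD2-treated Hep3B. The median interaction was −0.22, with median responses of −0.23 in Hep3B and 0.01 in SNU449. Below the floor lay 15 of the 44 genes in both SNU449 groups and 5 in both Hep3B groups. The SNU449 median is thus limited, since a fall could hardly have been seen in those 15. The 4 called genes showed both kinds of response. APOM fell and APOC3, an apolipoprotein of triglyceride-rich particles, had a response of −0.70 in Hep3B only, while AMBP, the precursor of the plasma protein alpha-1-microglobulin, and APOE rose in SNU449 by 0.99 and 1.32 (adjusted p = 0.00231 and 0.000527) from levels far below those of Hep3B. For APOE the direction turned on the unlogged scale, since Hep3B levels of 11.15 to 11.50 gain more signal from a response of 0.18 than SNU449 levels of 5.83 to 6.13 do from 1.32. The APOE call was also lost without replicate 2 of DMSO-treated Hep3B and without replicate 1 of DAAD2-treated Hep3B (adjusted p = 0.0595). Other APOE probe sets had interactions of −0.24 and −0.86, not called (adjusted p = 0.946 and 0.0576).

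NRF2 and glutathione genes had 6 negative calls of 39 (15.4%, beside 1.46% of all genes) and a median interaction of −0.28. The count was 9 after quantile normalization and 10 after cyclic loess. The medians were 0.02 in Hep3B and 0.37 in SNU449, where 11 of the 39 genes rose, beside 3.73% of all genes. None (0 of 39) fell there, but only 1.76% of all genes did, so the 0 is no result about the list. Of the 6, 4 were aldo-keto reductases: beside AKR1B10, AKR1C1 had responses of −0.34 and 1.08, AKR1C2 of −0.30 and 1.24, and AKR1C3 of −0.19 and 1.34. AKR1C3 was at 4.37 to 4.78 in Hep3B controls and rose in SNU449 from 11.96, 11.66 and 11.69 to 13.29, 13.04 and 13.01. The AKR1C genes are near-identical, so their probe sets are not independent. The ferritin light chain FTL (0.00 and 0.59, the first value rounding a response just below 0) and transketolase TKT (−0.07 and 0.72) made up the rest.

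Interferon-stimulated genes had 9 negative calls of 52 (17.3%, beside 1.46% of all genes) and a median of −0.35. The 1 positive call made 1.92%, near the 1.82% of all genes. In SNU449 18 of the 52 rose, beside 3.73% of all genes. Below the floor lay 19 of the 52 in both Hep3B groups and 10 in both SNU449 groups. GBP2, a guanylate-binding GTPase, rose in SNU449 from 5.08, 4.66 and 5.00 to 7.05, 6.63 and 6.72 (adjusted p = 3.98e-05) from a level close to that of Hep3B controls, at 5.37, 4.97 and 5.15. Its Hep3B response was 0.28. IFIT1, PSMB9, UBE2L6 and PARP9 had SNU449 responses of 0.99, 1.19, 1.19 and 0.91 beside −0.06, −0.23, −0.08 and −0.09 in Hep3B. The positive call was TAP2, a peptide transporter for antigen presentation, with 0.63 and −0.13, and it was lost without any 1 of 11 arrays, all but replicate 3 of DMSO-treated Hep3B, and after quantile normalization or cyclic loess. The count of negative calls ranged from 5 without replicate 1 of DAAD2-treated SNU449 to 14 without replicate 2.

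Immediate early genes had 7 negative calls of 37 (18.9%, beside 1.46% of all genes) and a median of −0.35. The 1 positive call made 2.7%, near the 1.82% of all genes. The negative calls were 4 without replicate 1 of DAAD2-treated SNU449 or replicate 1 of DMSO-treated Hep3B, and 10 after cyclic loess. JUNB, an AP-1 subunit, rose in SNU449 from 6.54, 6.82 and 6.45 to 8.22, 8.05 and 8.06 (adjusted p = 0.00043), past the Hep3B controls at 7.71, 7.74 and 7.29, whose response was −0.29. EGR1, a zinc finger factor, had responses of −0.04 and 1.67, the Kruppel-like factor KLF4 of −0.05 and 1.26, ZFP36, which shortens the life of cytokine messages, of −0.38 and 1.21, DUSP1, a MAP kinase phosphatase, of −0.13 and 0.74, and JUN of −0.23 and 0.60. The positive call was CCND1. All 7 negative genes (FOS, JUN, JUNB, EGR1, KLF4, DUSP1 and ZFP36) had higher control means in Hep3B than in SNU449, from DUSP1 at 10.55 and 10.00 to FOS at 9.35 and 3.34. The same held for 70.5% of all probe sets higher in SNU449 only and for 48.4% of those tested. A low SNU449 control mean favours both the call and this order.

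Chemokines and NF-kB targets had 5 negative calls of 40 (12.5%, beside 1.46% of all genes). The 1 positive call, CXCL5, made 2.5%, near the 1.82% of all genes. The negative calls were 3 without replicate 2 or 3 of DMSO-treated SNU449 or without replicate 1 of either DAAD2 group. CXCL2, a neutrophil chemokine, rose in SNU449 from 5.19, 5.08 and 5.19 to 6.96, 7.17 and 6.85 (adjusted p = 0.000527) beside 0.35 in Hep3B, and its call was lost without any 1 of 6 arrays (adjusted p = 0.075 without replicate 1 of DAAD2-treated Hep3B). The cytokine IL1B rose in SNU449 by 1.32 (adjusted p = 0.00144) beside −0.19, and NFKBIZ, an inhibitor family member of NF-kB, had responses of 0.23 and 1.67. The list medians were 0.19 in Hep3B and 0.34 in SNU449, on the same side of 0.

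Other lists had few calls, to be read beside 1.82% positive and 1.46% negative calls over all genes. Drug metabolism had 4 negative of 34 (2 without replicate 3 of DMSO-treated SNU449). Among them were CYP3A5, which rose in SNU449 by 1.67 (adjusted p = 0.00222), and CYP1B1. On its brightest probe set the CYP1B1 call was lost without any 1 of 11 arrays (adjusted p = 0.127 without replicate 1 of DAAD2-treated Hep3B). Other CYP1B1 probe sets had interactions of −1.04 and −0.83 (adjusted p = 0.0289 and 0.00921) and, not called, 0.39. The called ones had Hep3B control means of 3.57 and 3.03, below the floor. Another CYP3A5 probe set, at −2.41 (adjusted p = 5.39e-05), had a Hep3B control mean of 3.23. Fatty acid synthesis had 2 negative of 18, SREBF1 and SCD, with responses of −0.40 and 0.79 and of 0.04 and 0.67. Actin and mesenchymal genes had 3 positive (6 without replicate 2 of DAAD2-treated SNU449) and 1 negative of 40, the latter being the collagen COL1A1 (−0.05 and 1.21). Other COL1A1 probe sets had interactions of −0.93 (adjusted p = 0.0224) and, not called, −0.26, 0.13 and −0.03. Caspases and apoptosis had 2 positive, CASP2 and CYCS, and 1 negative, TNFSF10, of 27. Of the p53 targets 1 of 23 was called, TP53INP1, with −0.27 and 0.89. Of these, SCD lost its call without any 1 of 6 arrays and TP53INP1 without any 1 of 4 (adjusted p = 0.0739 and 0.0632 without replicate 1 of DAAD2-treated Hep3B), and COL1A1 without any 1 of 7 (adjusted p = 0.0736 without replicate 2 of that group). CASP2 lost its call without any 1 of 8 (adjusted p = 0.0825 without replicate 3 of DMSO-treated SNU449) and CYCS without any 1 of 10 (adjusted p = 0.0971 without replicate 2 of that group). Other CASP2 probe sets had interactions of −0.48 to 1.10, none called. Housekeeping genes had 1 of 12 (2 without replicate 2 of DAAD2-treated SNU449), the transferrin receptor TFRC, which fell in SNU449 by 0.71 (adjusted p = 0.00281). Cholesterol synthesis (19 genes), metallothioneins (9), epithelial and progenitor markers (20), cytosolic ribosomal proteins (28) and leukocyte markers (13) had 0 calls.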

How the data were processed

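Total RNA of Hep3B and SNU449 cells with DAAD2 or DMSO was measured on 12 arrays, 3 per group. The deposited log2 values were made by the authors with RMA; no version of RMA is named in the sources used, and the paper's methods name BRB Array Tools for normalization. Groups came from the labels, and 0 columns were left unused. A fit with 4 group means (limma 3.58.1, R 4.3.3, two-sided) gave the interaction and both responses. Benjamini-Hochberg adjustment ran over 54613 probe sets, with no filter on dim ones. Platform annotation gave 1 symbol to 41091 probe sets, several to 1801 and none to 11721; the brightest probe set stood for each of 19775 genes.

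Members and the 22 gene lists (646 of 712 genes measured) were chosen with earlier results of these data known. The text names, by size of the interaction, up to 6 genes per direction with opposite responses, 5 per line and direction with 1 responding line, 3 per line and direction with the other line below the floor, the 3 largest called members of each list and identity markers. Further members, and genes that moved alike, were named after their values were seen. The fit was tested on simulated data. Alternatives were other scalings, variance models, floors, thresholds, the replicate block, and each array left out.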

Additional observations from a re-analysis of the deposited data

Results flagged for a closer look

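The results below were singled out because the response to DAAD2 differed between the lines by the test of the difference itself, at 2 μM in Hep3B and 20 μM in SNU449. Over all probe sets this held for 661 with the Hep3B response above that of SNU449 and for 435 with it below. The values that follow are log2 differences of responses, Hep3B minus SNU449, for the genes named by the rule (limma, adjusted p under 0.05), and no cause was tested for any of them. Value and class are those of the brightest probe set of each gene, and other probe sets of a gene can differ in both.

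Opposite responses in both lines had positive differences of 2.11 for CCND1, 2.05 for BAG3, 2.04 for GDAP1, 1.79 for SLC12A2, 1.77 for SHCBP1 and 1.74 for CHML. Their negative differences were −2.05 for CFB, −1.64 for ANG, −1.62 for TNFSF10, −1.54 for ST6GALNAC2 and −1.35 for FXYD2.

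Responses in Hep3B only, with SNU449 above the floor, had positive differences of 2.75 for TUBA1A, 1.62 for PRSS23, 1.499 for WDR4, 1.47 for PRR34-AS1, 1.32 for IPO4, 1.29 for KIF23, 1.19 for HSPH1, 1.13 for TUBB6 and 0.93 for HSPA5. Their negative differences were −1.54 for APOM, −1.34 for MMP11, −1.15 for PSG7, −1.11 for ICA1-AS1 and −1.05 for MEP1A.

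Responses in SNU449 only, with Hep3B above the floor, had positive differences of 1.76 for MCM10, 1.73 for SLC7A5, 1.72 for RRM2, 1.59 for TCF19, 1.56 for NEXN, 1.39 for MYL9, 1.19 for BUB1B, 1.12 for MKI67, 0.90 for TFRC and 0.84 for CASP2. Their negative differences were −2.62 for FGG, −2.50 for IFITM1, −2.43 for PSG3, −2.40 for FOS, −2.30 for PLA1A, −2.05 for ALDH1L1, −1.90 for C3, −1.88 for CYP3A5, −1.80 for JUNB, −1.61 for GBP2, −1.54 for AKR1C2, −1.53 for AKR1C3, −1.51 for IL1B, −1.49 for CXCL2, −1.26 for COL1A1, −1.24 for CYP1B1, −1.21 for AMBP, −1.19 for SREBF1, −1.16 for TP53INP1, −1.14 for APOE and −0.62 for SCD.

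Responses in 1 line while the other lay below the floor had positive differences of 2.81 for CXCL5, 1.89 for ZBED2, 1.21 for CEP15, 1.03 for RFX6, 0.86 for LINC01279 and 0.72 for NXPH2. Their negative differences were −3.23 for AKR1B10, −2.06 for SPP1, −1.97 for CSGALNACT1, −1.63 for GBP3, −1.27 for MYCN, −1.19 for FMO5 and −0.88 for CLRN3.

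With neither line past the response rule, there were positive differences of 0.80 for HSPA9, 0.79 for WARS1, 0.73 for TUBA1C and 0.59 for CYCS.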

How the results depend on the processing

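The direction of the difference held for each of the 73 called genes named above in all 22 alternatives, each fitted to the brightest probe set. These genes were chosen for called differences on the same arrays, so a turned direction was unlikely from the start. On the unlogged scale, not among the 22, the direction turned for APOE, with a difference of 218. Of the 73 genes 45 had over 1 probe set. Another probe set was called with the same sign in 16 of these, and with the other sign in 0. The call held in all 22 alternatives for 27 of the 73, and without each array in turn for 46. Further genes that lost it were MMP11 without any 1 of 3 arrays (adjusted p = 0.0525 without replicate 2 of DAAD2-treated Hep3B) and PSG7 without any 1 of 2 (adjusted p = 0.0588 without replicate 2 of DMSO-treated SNU449). Counts of calls moved with the setting, and the cause was not tested. Numbers of probe sets are given as called positive and called negative, against 661 and 435.

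With the replicate number as a block they were 234 and 186. The numbers did not pair the arrays (correlations of same-numbered deviations −0.228, −0.271 and 0.0901 in Hep3B and −0.00835, −0.0762 and −0.0637 in SNU449). With the block 46 probe sets were in Hep3B only, 245 in SNU449 only, 52 with the other line below the floor and 37 with neither line past the rule. Calls in the lists were then 17 for DNA replication, 5 for mitosis, 2 for tubulins, 2 for endoplasmic reticulum stress and 2 negative ones for chemokines and NF-kB targets. Cyclic loess gave 416 positive calls and 70 in Hep3B only, and quantile normalization 64 in Hep3B only. Without moderation of the variances the counts were 164 and 173, with 15 opposite, 15 in Hep3B only, 162 in SNU449 only, 31 with the other line below the floor and 114 with neither. The GAPDH 3′ to 5′ ratio as a covariate gave 1189 and 657, with 127 opposite, 204 in Hep3B only, 803 in SNU449 only and 582 with neither. A weight per array gave 1377 and 722, with 870 in SNU449 only, 153 below the floor and 829 with neither. An adjusted p under 0.01 left 95 and 113, and a test against a fold of 1.2 left 69 and 101.

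With 1 probe set per gene 24 were opposite and 64 had the other line below the floor. With an adjusted p as the response rule 10 were opposite and 51 in Hep3B only. With an unadjusted p alone 511 were opposite, 77 in Hep3B only, 12 in the same direction and 0 with neither. A floor 1 log2 unit higher put 174 probe sets in the class with the other line below it, and a floor at the 25th percentile 32.

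Leaving out 1 array at a time gave 211 to 1602 positive and 223 to 719 negative calls, 27 to 101 opposite, 40 to 199 in Hep3B only, 249 to 1036 in SNU449 only, 54 to 167 with the other line below the floor, 52 to 818 with neither, and 0 to 1 in the same direction. The upper ends, other than the last, came without replicate 2 of DAAD2-treated SNU449. The lower ends, other than the last, came without replicate 3 of DMSO-treated SNU449 or replicate 1 or 2 of DAAD2-treated Hep3B, and that of 54 also without replicate 2 of DMSO-treated SNU449 or replicate 1 of DMSO-treated Hep3B.

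The 3 arrays per group limit the precision, and levels near the floor limit what a fall can show.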
